A study of Rattus norvegicus with 8 samples.

Results

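Molecular chaperones bind unfolded proteins and help them reach or keep their native shape. The genes described here are the heat shock proteins (Hsp70, Hsp110, Hsp90, the small Hsps and the mitochondrial Hsp60 and Hsp10), the J-proteins, the Bag family, subunits 2 to 8 of the cytosolic chaperonin CCT and the co-chaperones Stip1, Chordc1, Hspbp1 and Hspbap1. Members were matched by gene symbol within the authors' deposited table, which holds 13739 of the 32623 genes annotated in the count tables, and the symbol rule itself uses no measured value. A family member that the deposited table does not list was not analysed here. The symbols gave 82 rows and 81 genes, because Hspa1a and Hspa1b carry 1 shared Ensembl identifier and were used once. Polyadenylated RNA had been sequenced from hippocampal neuronal cultures of wild-type SD rats on day 18 in vitro. Of the 8 libraries, 4 came from cultures given vehicle and 4 from cultures given a drug-like potentiator of NMDA-type glutamate receptors, labelled PAM (positive allosteric modulator). A compound of this kind makes the receptor respond more to glutamate and does not open it by itself. The sources used here name neither the compound, its dose nor the length of exposure. The labels do not say whether the 4 libraries of a group came from separate cultures, so p-values measure the spread between these libraries, which may be technical.

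As background, Hsp70 proteins bind and release exposed hydrophobic segments in a cycle driven by ATP. J-proteins deliver clients and trigger ATP hydrolysis, and nucleotide exchange factors of the Bag, Hsp110 and Hspbp1 kinds release ADP and reset the cycle. Hsp90 acts later, on nearly folded kinases and receptors handed over by Stip1. Small Hsps hold unfolded proteins without ATP, and chaperonins enclose a client in a barrel. Heat shock factor 1 (Hsf1) binds inverted repeats of the word GAA in promoters and raises many of these genes under proteotoxic stress.

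Libraries held 2960406 to 4389430 counts, of which 1.14% to 1.34% fell on the 81 genes. Levels are CPM, counts scaled to a common library size, with scaling by TMM, edgeR's correction for library composition. A gene rose or fell when its adjusted p was under 0.05 in edgeR's quasi-likelihood test with Benjamini-Hochberg adjustment over 11740 genes, and log2 fold changes are PAM over vehicle with their standard error (SE). PAM 3 and PAM 4 stood apart, because their log2 counts declined with exonic length, with slopes of -0.0853 and -0.132 per doubling, whereas the other 6 libraries had slopes of 0.00524 to 0.0627. Cell type markers also moved with treatment. Summed neuronal markers were 4732 to 5400 CPM with vehicle and 3396 to 4029 CPM with PAM, and 4 of 9 fell. Astrocyte markers were 6283 to 6600 CPM with vehicle and 9185 to 11169 CPM with PAM, and 5 of 9 rose. Oligodendrocyte markers were 957 to 1069 CPM with vehicle and 1350 to 1747 CPM with PAM (5 of 10 rose, 1 fell), and ependymal markers were 63.9 to 118 CPM with vehicle and 157 to 282 CPM with PAM (7 of 10 tested rose). Of choroid plexus markers the 1 tested rose, and of 4 vascular and fibroblast markers 1 rose. The 1 tested microglial marker did not pass the test. No listed marker found in the table was at 0 in all 8 libraries. The part of these shifts in the results below was not tested, and in bulk RNA fewer cells of a type and less RNA per cell cannot be told apart.

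Of the 73 genes with enough counts to test, 7 rose (9.59%), where 9.00% of all genes tested rose. The risers were Hspb1, Bag3, Hspb8, Dnajc1, Hspa2, Dnajc9 and Hspe1. In the other direction 3 fell (4.11%), where 9.89% of all genes fell, namely Hspa12a, Dnajc6 and Dnajc11. The share that rose was thus near the background of all genes. Counted in either direction, 18.9% of all genes passed. The chaperone genes with the highest level per exonic length, Hspa8 and Hsp90ab1, did not pass, whereas Hspe1, the third in that order, rose. The place of Hspe1 rests on an annotated exonic length of only 267 bases. The median log2 fold change was 0.09 over the 73 genes and 0.02 over all genes, and the median size regardless of sign was 0.20 and 0.29. Of the 73 genes, 45 had a fold change under 0.25 in size, and Hspb1, Bag3 and Hspa12a exceeded 2-fold. The authors' deposited table, with its own adjusted p under the same threshold, calls the same 10 genes in the same directions.

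**Figure D1:**
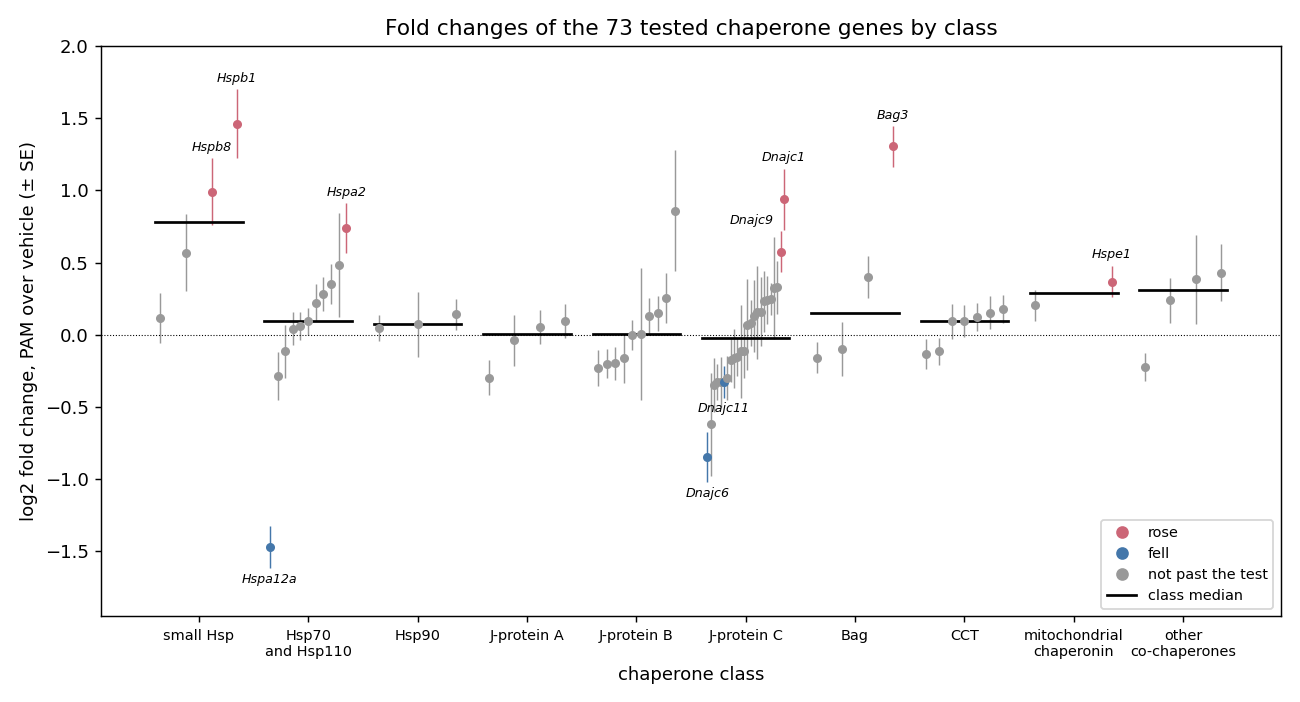
Log2 fold change, PAM over vehicle, of each of the 73 tested chaperone genes (points, with bars of ± SE), grouped by class on the x axis, with the class median as a black line. The 7 genes that rose and the 3 that fell are coloured and named. The small Hsps, 4 tested genes grouped by symbol, have the highest class median (0.78), and the J-proteins lie on both sides of 0.

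By class the counts were small, and differences between classes were not tested. Where 18.9% of all genes passed, the Hsp70 and Hsp110 class had 2 of 11 (1 rose, 1 fell, median 0.09) and the J-proteins 4 of 38 (2 rose, 2 fell). The J-protein median was 0.0018, with 19 genes on each side of 0. Among small Hsps, grouped by symbol with Hspb11 (Ift25) and without Cryab, 2 of 4 tested rose, with a class median of 0.78. Of 4 Bag genes 1 rose (median 0.15), and of 2 mitochondrial chaperonin genes 1 rose (median 0.29). None of 3 Hsp90 genes, 7 CCT genes and 4 other co-chaperones passed the test, with medians of 0.07, 0.10 and 0.31. In all, 8 genes had too few counts to be tested (Cct6b, Hspa12b, Hspa1l, Dnajb3, Dnajc28, Dnajc22, Hspb2 and Hspb7), with at most 15 counts in any library.

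The groups did not overlap at all for 17 of the 73 genes, and for 22.3% of all genes tested. Beside the 10 genes past the test these were Cct3, Cct5 and Dnajc3 on the higher side and Stip1, Cct7, Hspa14 and Dnajc27 on the lower side. Their fold changes were small, from -0.33 to 0.33, and none of these 7 passed the test.

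**Figure D2:**
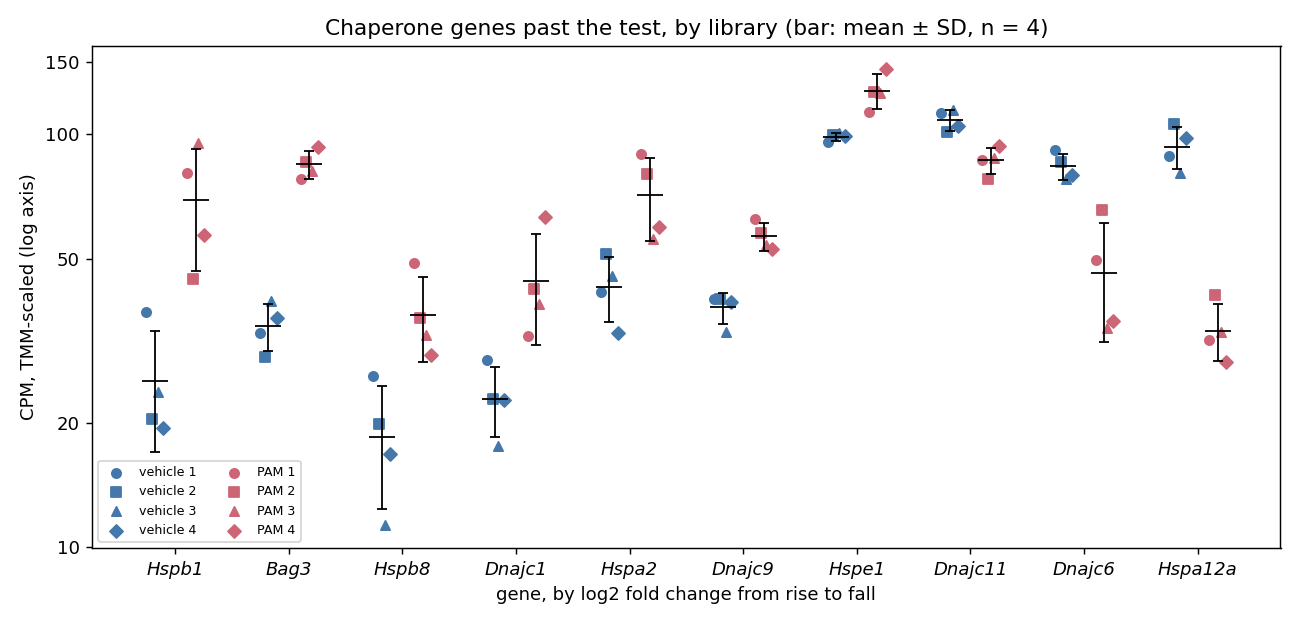
TMM-scaled CPM (log axis) of the 10 chaperone genes past the test in each library, with vehicle in blue, PAM in red, 1 symbol shape per replicate number, and bars of mean ± SD (n = 4). No PAM library lies among the vehicle libraries for any of the 10 genes, and Dnajc11 and Hspe1 show the smallest fold changes.

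The 3 largest increases were those of Hspb1, Bag3 and Hspb8. Hspb8 and Bag3 are known as partners in a complex that hands misfolded proteins to autophagy, and Hspb1 is a small Hsp that also binds actin filaments. Their promoters are shown because all 3 hold the same word, an inverted repeat of the kind heat shock factors bind. Each line gives the 250 bases before the RefSeq transcription start (build GRCr8), 5′ to 3′ on the gene's strand, with matches to GAANNTTC in capitals.
Bag3: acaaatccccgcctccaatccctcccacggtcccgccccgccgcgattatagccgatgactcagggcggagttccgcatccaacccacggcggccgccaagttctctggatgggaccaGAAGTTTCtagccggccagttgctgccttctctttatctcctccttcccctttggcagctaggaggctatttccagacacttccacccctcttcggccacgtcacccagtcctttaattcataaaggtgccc
Hspb8: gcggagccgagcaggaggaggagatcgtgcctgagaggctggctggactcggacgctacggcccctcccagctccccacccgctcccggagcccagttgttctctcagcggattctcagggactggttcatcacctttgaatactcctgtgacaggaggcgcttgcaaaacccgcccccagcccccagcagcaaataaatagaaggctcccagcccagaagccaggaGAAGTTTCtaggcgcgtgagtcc
Hspb1: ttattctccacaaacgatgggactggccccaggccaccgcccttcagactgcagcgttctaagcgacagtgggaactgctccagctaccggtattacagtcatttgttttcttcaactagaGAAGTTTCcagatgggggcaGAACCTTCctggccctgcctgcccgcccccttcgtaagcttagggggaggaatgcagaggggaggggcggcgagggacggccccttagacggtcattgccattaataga
The Bag3 window is chr1:192533210-192533459 on the plus strand, Hspb8 chr12:45837058-45837307 on the plus strand, and Hspb1 chr12:26432302-26432551 on the minus strand. The shared word GAAGTTTC, picked out after the 3 promoters were read, lies at -132 to -125 in Bag3, -23 to -16 in Hspb8 and -129 to -122 in Hspb1, counted from the start. The longest run shared by Bag3 and Hspb8 was AGAAGTTTCTAG, and that shared by Hspb8 and Hspb1 was GAGAAGTTTC. Hspb1 holds a second match, GAACCTTC, at -109 to -102.

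Promoter entries were found for 68 of the 82 symbols, in 69 windows of 250 bases, and 33469 windows were searched in all, on both strands. The pattern GAANNTTC, where N is any base, was in 18.8% of the chaperone windows and 7.23% of all windows. GAANNTTC was held by 4 genes that rose (Bag3, Hspb1, Hspb8 and Hspe1) and by 9 that did not pass the test. These 9 were Dnaja1, Dnajb1, Dnajb6, Dnajc18, Hspa8, Hspa9, Hspb6, Hspd1 and Hsph1. The other half-turn, TTCNNGAA, which overlaps GAANNTTC in longer repeats, was in 14.5% of the chaperone windows and 7.48% of all windows. The windows of Hspd1 and Hspe1 share 211 bases, so both chaperone shares count the matches of that stretch for both genes. Exactly GAAGTTTC was in 5 chaperone windows (Bag3, Hspb8, Hspb1, Hspb6 and Hspa9), a share of 7.25%, against 1.22% of all windows. Because the word was picked from the promoters of Bag3, Hspb8 and Hspb1, these shares cannot show whether it is enriched. Hspb6 and Hspa9, which hold the word but were not used to pick it, did not pass the test. A match is a description of the letters and not a measured binding site.

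Hspb1 rose 2.75-fold. Vehicle 1 to 4 had 37.2, 20.4, 23.8 and 19.4 CPM and PAM 1 to 4 had 80.7, 44.6, 95.3 and 57.0 CPM. All PAM libraries were above all vehicle libraries, with the group means at 25.2 ± 8.22 and 69.4 ± 22.9 CPM (mean ± SD, n = 4). The log2 fold change was 1.46 ± 0.24 (SE, edgeR adjusted p = 0.000366). The 4 vascular and fibroblast markers summed to 132, 91.7, 125 and 106 CPM in vehicle 1 to 4 and 183, 128, 159.6 and 109 CPM in PAM 1 to 4. These sums overlapped between the groups. Of the 4 markers Col1a1 rose (1.73 on the log2 scale), and Pdgfrb (0.11), Dcn (0.04) and Lum (-0.38) did not pass. The part in the Hspb1 rise of these markers, and of the astrocyte markers given above, whose sums rose without overlap, was not tested. The gene lies at chr12:23839399-23841049 on the minus strand (Rnor_6.0, the build of the counts, as for all gene positions below).

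Hspb8 rose 1.99-fold, from 25.9, 19.8, 11.3 and 16.8 CPM in vehicle 1 to 4 to 48.6, 35.8, 32.6 and 29.2 CPM in PAM 1 to 4. Vehicle 3 was the lowest and PAM 1 the highest, and the lowest PAM library stood above the highest vehicle library by a small step. Its log2 fold change was 0.99 ± 0.23 (SE, edgeR adjusted p = 0.00551), and without PAM 1 it was 0.82 with adjusted p = 0.0300 by edgeR. The gene is at chr12:45905371-45920013 on the plus strand.

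The other genes grouped by symbol as small Hsps did not pass the test. Hspb11, also known as Ift25, a part of the transport machinery of cilia, had 14.6, 14.9, 11.9 and 8.74 CPM in vehicle 1 to 4 and 23.7, 14.5, 13.7 and 23.1 CPM in PAM 1 to 4, with groups that overlapped and a log2 fold change of 0.57 ± 0.26 (SE). Hspb6, a small Hsp best known from muscle, had 31.4, 40.7, 42.0 and 34.0 CPM with vehicle and 46.3, 32.2, 46.0 and 36.1 CPM with PAM in the same order (0.12 ± 0.17 on the log2 scale, SE). Its promoter holds the same word as Bag3, Hspb8 and Hspb1, in capitals in this stretch at -159 to -132.
Hspb6: agtaattattGAAGTTTCtaaataagga
The muscle genes Hspb2 and Hspb7 had at most 4.69 CPM in any library. Summed over the class, small Hsps were 94.7 ± 12.6 CPM with vehicle and 168 ± 34.5 CPM with PAM (mean ± SD, n = 4), and the groups did not overlap (at most 110.7 CPM against at least 128.6 CPM). Cryab, the crystallin of this family, which the symbol rule does not take, went the other way without passing the test, from 279.7 to 239 CPM (log2 fold change -0.23). Its libraries ran from 264 to 312 CPM with vehicle and from 148 to 357 CPM with PAM. Cryab is thus more abundant than the whole sum above, and with it added the groups overlap.

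Bag3 rose 2.47-fold and had the 32nd smallest p of the 11740 genes tested. Vehicle 1 to 4 had 32.9, 28.9, 39.4 and 35.9 CPM and PAM 1 to 4 had 78.1, 85.7, 81.6 and 93.4 CPM, so the groups were far apart and narrow, at 34.3 ± 4.48 and 84.7 ± 6.56 CPM (mean ± SD, n = 4). The log2 fold change was 1.30 ± 0.14 (SE, edgeR adjusted p = 6.37e-06). Over the 18 alternative analyses it stayed between 1.23 and 1.38. The gene is at chr1:199941161-199965191 on the plus strand.

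None of the other Bag genes passed the test. Bag1, a nucleotide exchange factor that also binds Bcl2, had 89.6, 85.9, 107 and 86.4 CPM in vehicle 1 to 4 and 99.3, 104, 126 and 160.1 CPM in PAM 1 to 4. PAM 4 was the highest, PAM 1 and PAM 2 lay inside the vehicle range, and the log2 fold change of 0.40 ± 0.14 (SE) narrowly missed the threshold (edgeR adjusted p = 0.0583). It passed upward in 4 of 18 alternative analyses (no low-count filter, upper-quartile scaling, without PAM 1 and without PAM 2, with edgeR adjusted p of 0.0242, 0.0374, 0.0319 and 0.0245). Bag6, which shields tail-anchored membrane proteins and others bound for degradation, had 308, 338, 322 and 298 CPM with vehicle and 271, 239.9, 299 and 324 CPM with PAM, in groups that overlapped (-0.16 ± 0.11, SE). Bag2, an inhibitor of the ubiquitin ligase Stub1, had 26.2, 27.3, 27.9 and 30.4 CPM with vehicle and 27.4, 19.8, 32.3 and 24.9 CPM with PAM (-0.10 ± 0.19, SE). Bag6 passed the test, at -0.30, when PAM 3 and PAM 4 were left out (edgeR adjusted p = 0.0186).

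Of the Hsp70 class neither the constitutive nor the stress-induced members passed the test, while 2 less familiar genes moved in opposite directions. Hspa12a, a distant Hsp70 relative that is abundant in brain, fell 2.77-fold and had the 19th smallest p of all genes tested. It had 88.7, 106, 80.8 and 98.0 CPM in vehicle 1 to 4 and 31.8, 40.7, 33.1 and 28.1 CPM in PAM 1 to 4. No library came near the other group, and the log2 fold change was -1.47 ± 0.15 (SE, edgeR adjusted p = 3.25e-06). The gene is at chr1:279946811-280015358 on the minus strand. Neuronal markers fell as well, the largest change among the 4 that passed being that of Tubb3 at -0.83, and their part in the fall of Hspa12a was not tested.

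Hspa2, an Hsp70 best known from male germ cells, rose 1.67-fold. Its levels were 41.5, 51.2, 45.4 and 33.0 CPM in vehicle 1 to 4 and 89.7, 80.0, 55.9 and 59.5 CPM in PAM 1 to 4. PAM 1 and PAM 2 were the highest, and PAM 3 and PAM 4 were just above the highest vehicle library. The log2 fold change was 0.74 ± 0.17 (SE, edgeR adjusted p = 0.00538), and 0.99 without PAM 3 and PAM 4. The gene is at chr6:99433550-99436289 on the plus strand.

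Hspa8, the constitutive cytosolic Hsp70 (Hsc70), was the most abundant of the class. It had 2027, 2033, 2118 and 2054 CPM in vehicle 1 to 4 and 2093, 2207, 2042 and 2447 CPM in PAM 1 to 4, with a log2 fold change of 0.09 ± 0.09 (SE). The stress-induced Hspa1a/Hspa1b, counted as 1 gene, had 7.62, 9.91, 5.64 and 8.74 CPM with vehicle and 4.61, 11.1, 11.8 and 18.0 CPM with PAM in replicate order. PAM 4 was highest and PAM 1 lowest of all 8 libraries, so the estimate of 0.48 ± 0.36 (SE) was wide and did not pass the test (edgeR adjusted p = 0.385). Without PAM 3 and PAM 4 it was -0.0047. Hspa1l, a neighbour in the same gene cluster, had at most 13 counts in a library and was not tested.

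The organelle Hsp70s did not pass either. Hspa5 (BiP), the Hsp70 of the endoplasmic reticulum, had 658, 621, 579.8 and 643 CPM in vehicle 1 to 4 and 651, 724, 593 and 639 CPM in PAM 1 to 4 (0.06 ± 0.10 on the log2 scale, SE). Hspa9 (mortalin), the mitochondrial Hsp70, had 127, 95.2, 93.6 and 104 CPM with vehicle and 100.03, 142, 72.3 and 72.1 CPM with PAM. For Hspa9, PAM 2 was the highest of all libraries and PAM 3 and PAM 4 the lowest, and the log2 fold change turned from -0.11 ± 0.18 (SE) to 0.22 without PAM 3 and PAM 4.

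Hsp110 proteins are large Hsp70 relatives that act as nucleotide exchange factors. Hsph1 (Hsp105) had 249, 219, 222 and 264 CPM in vehicle 1 to 4 and 302, 345, 254 and 257 CPM in PAM 1 to 4, PAM 1 and PAM 2 being above every vehicle library and PAM 3 and PAM 4 inside the vehicle range. Its log2 fold change was 0.28 ± 0.12 (SE, edgeR adjusted p = 0.104) in all 8 libraries. Without PAM 3 and PAM 4 it was 0.46 with adjusted p = 0.000319 by edgeR, and with each library's length trend removed it was 0.32 with adjusted p = 0.0426. It also passed without PAM 4 alone (0.33, adjusted p = 0.0392 by edgeR). Hspa4l had 61.9, 65.8, 56.4 and 75.4 CPM with vehicle and 71.9, 98.9, 74.2 and 85.1 CPM with PAM (0.35 ± 0.14, SE, edgeR adjusted p = 0.0865), and it also passed without PAM 3 and PAM 4 (0.41) and with length trends removed (0.42). Hspa4, the third of the kind, had 177, 179, 186 and 220.0 CPM with vehicle and 189, 230.3, 174 and 190.0 CPM with PAM, with a log2 fold change of 0.04 ± 0.12 (SE). The remaining Hsp70 relatives, Hspa13 and Hspa14, had fold changes of 0.22 and -0.29 and did not pass.

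The longest repeats of this kind were not in the promoters of Hspb1, Bag3 and Hspb8. The run GAA, TTC, GAA with any 2 bases between the units was in 4 of 69 chaperone windows (5.80%) and in 0.663% of all windows. The windows were those of Hspa8, Hsph1, Hspe1 and Hspd1. The windows of Hspe1 and Hspd1 share 211 bases, so the same repeat is counted for both. Stretches of Hspa8 (-223 to -191) and Hsph1 (-46 to -14) are printed to show them, with the repeat in capitals.
Hspa8: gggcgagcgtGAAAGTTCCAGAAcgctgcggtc
Hsph1: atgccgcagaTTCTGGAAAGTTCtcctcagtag
Hspa8 holds a second copy on the other strand at -55 to -43.

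None of the 3 Hsp90 genes passed the test. Hsp90ab1, the constitutive cytosolic form, had 2249, 2262, 2352 and 2332 CPM in vehicle 1 to 4 and 2380.0, 2313, 2290.2 and 2519 CPM in PAM 1 to 4, and its log2 fold change was 0.05 ± 0.09 (SE). Hsp90aa1, the stress-induced cytosolic form, was far lower, with 43.9, 25.3, 28.5 and 36.9 CPM with vehicle and 32.5, 43.1, 21.6 and 44.3 CPM with PAM (0.07 ± 0.22, SE). The order of its libraries did not follow treatment, since vehicle 1 was second only to PAM 4 and PAM 3 was the lowest. Hsp90b1 (Grp94), the form of the endoplasmic reticulum, had 541, 512, 607 and 602 CPM with vehicle and 573, 685, 546 and 693 CPM with PAM (0.14 ± 0.11, SE). Summed Hsp90 was 2898 ± 94.8 CPM with vehicle and 3035 ± 166 CPM with PAM (mean ± SD, n = 4).

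Among J-proteins, type A and type B members are the general partners of Hsp70, and none of the 14 tested passed the test. Dnaja1, a cytosolic type A protein, had 228, 215, 243 and 256 CPM in vehicle 1 to 4 and 225, 294, 205 and 254 CPM in PAM 1 to 4 (0.05 ± 0.12, SE). Dnaja3, the mitochondrial one, came nearest to the threshold, with 80.5, 101, 96.1 and 96.4 CPM with vehicle and 72.4, 82.5, 79.4 and 69.9 CPM with PAM, a log2 fold change of -0.30 ± 0.12 (SE) and an edgeR adjusted p of 0.0938. Only vehicle 1 of its group lay within the PAM range. Dnaja2 and Dnaja4 had fold changes of 0.10 ± 0.12 and -0.04 ± 0.18 (SE), with 123, 138, 133 and 132 and 45.1, 41.3, 36.9 and 41.4 CPM in vehicle 1 to 4. In PAM 1 to 4 they had 139, 166, 118 and 138 and 49.6, 45.4, 35.6 and 28.5 CPM, and in both genes the groups overlapped.

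Dnajb1 (Hsp40), a stress-induced type B protein, had 85.7, 72.7, 85.2 and 96.7 CPM in vehicle 1 to 4 and 89.2, 93.4, 105 and 89.1 CPM in PAM 1 to 4, with a log2 fold change of 0.15 ± 0.12 (SE). Dnajb6, which holds back polyglutamine aggregates, had 117, 111, 105 and 120.4 CPM with vehicle and 90.1, 112, 104 and 79.3 CPM with PAM (-0.23 ± 0.12, SE). Dnajb2, a neuron-enriched protein that delivers clients to the proteasome, had 139, 130.5, 127 and 118 CPM with vehicle and 124, 135, 129 and 125 CPM with PAM. The Dnajb2 groups lay on top of each other, and its log2 fold change was -0.0015 ± 0.10 (SE). Dnajb5 had 184, 206, 203 and 206 CPM with vehicle and 162, 166, 184 and 186 CPM with PAM (-0.20 ± 0.10, SE). Vehicle 1 fell in the PAM range for Dnajb5 and the other 3 vehicle libraries were above it. Without PAM 3 and PAM 4 Dnajb5 passed at -0.27 on the log2 scale (edgeR adjusted p = 0.0439).

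Dnajb13, a J-protein of the radial spokes of motile cilia and sperm tails, had the largest estimate of the type B genes at 0.86 ± 0.42 (SE), from few counts. It had 1.83, 6.88, 5.32 and 2.59 CPM in vehicle 1 to 4 and 7.38, 8.10, 5.75 and 9.37 CPM in PAM 1 to 4, with groups that overlapped (edgeR adjusted p = 0.166). Ependymal markers, which are genes of motile cilia, rose in 7 of 10, with a median of 1.36 over the list, and their part in the Dnajb13 values was not tested. The other tested type B genes, Dnajb4, Dnajb12 and Dnajb14, had fold changes from -0.16 to 0.13.

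Type C J-proteins recruit Hsp70 to particular places or tasks. Of the 24 tested, 2 rose (8.33%) and 2 fell (8.33%), where 9.00% of all genes rose and 9.89% fell. Dnajc1, a membrane protein of the endoplasmic reticulum that brings BiP to ribosomes, rose 1.92-fold. Its levels were 28.4, 22.8, 17.5 and 22.6 CPM in vehicle 1 to 4 and 32.5, 42.2, 38.9 and 63.1 CPM in PAM 1 to 4, with PAM 4 the highest by a wide margin. The log2 fold change was 0.94 ± 0.21 (SE, edgeR adjusted p = 0.00402), and 0.73 without PAM 4 (adjusted p = 0.00747 by edgeR). The gene is at chr17:84986991-85141210 on the minus strand.

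Dnajc9, a nuclear histone co-chaperone, rose 1.49-fold. It had 39.9, 39.9, 33.2 and 39.1 CPM in vehicle 1 to 4 and 62.5, 57.6, 53.9 and 52.6 CPM in PAM 1 to 4. Vehicle 3 was lower than the other 3, which were close together, and all PAM libraries were above them. The log2 fold change was 0.58 ± 0.14 (SE, edgeR adjusted p = 0.00759), and against a 1.2-fold change the adjusted p was 0.0516 by edgeR. The gene is at chr15:4356261-4360564 on the plus strand.

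Dnajc6 (auxilin), which with Hsc70 strips the clathrin coat from endocytic vesicles in neurons, fell 1.80-fold. Vehicle 1 to 4 had 91.5, 85.6, 78.0 and 79.6 CPM and PAM 1 to 4 had 49.6, 65.5, 33.9 and 35.3 CPM. The fall was steepest in PAM 3 and PAM 4, the libraries with the length trend, and shallowest in PAM 2. The log2 fold change was -0.85 ± 0.18 (SE, edgeR adjusted p = 0.00219), and it was -0.52 without PAM 3 and PAM 4 (edgeR adjusted p = 0.00500). With each library's length trend removed it was -0.78 (adjusted p = 0.000777 by edgeR), close to the value as reported. Its exons are long, 5231 bases in all, at chr5:120340646-120492487 on the plus strand. Neuronal markers fell too, as given above, and their part was not tested.

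Dnajc11, a protein of mitochondrial membranes linked to the MICOS complex, fell 1.25-fold, the smallest change past the test. It had 112, 102, 114 and 104 CPM in vehicle 1 to 4 and 86.4, 78.0, 87.6 and 93.7 CPM in PAM 1 to 4, all lower than any vehicle library. Its log2 fold change was -0.33 ± 0.11 (SE, edgeR adjusted p = 0.0472), and the call was lost in 13 of 18 alternative analyses, with the replicate number as a block among them (adjusted p = 0.0749 by edgeR). Dnajc5, the cysteine string protein of synaptic vesicles, had 26.5, 31.4, 25.4 and 32.4 CPM with vehicle and 34.3, 38.2, 30.1 and 33.9 CPM with PAM and did not pass (0.24 ± 0.17, SE). The other 19 tested type C genes did not pass, with fold changes from -0.62 (Dnajc16) to 0.33 (Dnajc3). Of these, Dnajc4 passed at -0.66 without PAM 3 and PAM 4 (edgeR adjusted p = 0.00851) and at -0.51 once length trends were removed (adjusted p = 0.0439 by edgeR).

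The mitochondrial chaperonin is a barrel of Hsp60 (Hspd1) closed by a lid of Hsp10 (Hspe1). Hspe1 rose 1.29-fold, with 95.7, 99.4, 100.5 and 99.0 CPM in vehicle 1 to 4 and 113, 127, 126 and 144 CPM in PAM 1 to 4. The vehicle libraries were close together, PAM 1 was nearest to them and PAM 4 farthest. Its log2 fold change was 0.37 ± 0.11 (SE, edgeR adjusted p = 0.0249). The call was lost in 8 of 18 alternative analyses. Leaving out any 1 vehicle library gave log2 fold changes of 0.36 to 0.38 (adjusted p = 0.0575 to 0.0680 by edgeR), and the test against a 1.2-fold change gave adjusted p = 0.257. On the log2 scale the change was 0.31 without PAM 4 (adjusted p = 0.0502 by edgeR), 0.30 without PAM 3 and PAM 4 (0.0559) and 0.25 with the length trend removed (0.151). Its exonic length is 267 bases, short for a transcript, at chr9:61692154-61694599 on the plus strand. Hspd1 had 219.8, 188, 175 and 195 CPM with vehicle and 198, 248, 219.6 and 229 CPM with PAM, and only vehicle 1 lay inside the PAM range. Its log2 fold change of 0.20 ± 0.11 (SE) had the same sign as that of Hspe1 and did not pass (edgeR adjusted p = 0.213). RefSeq lists 20 pseudogenes of Hspd1.

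Hspd1 and Hspe1 lie head to head on chromosome 9, with RefSeq starts 290 bases apart (GRCr8), so their 250-base windows share 211 bases. The shared stretch holds 4 alternating GAA and TTC units, shown in capitals from each gene's own strand.
Hspe1: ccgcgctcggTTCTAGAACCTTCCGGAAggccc
Hspd1: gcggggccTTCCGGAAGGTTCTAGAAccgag
The stretch runs from -75 to -43 for Hspe1 and from -250 to -220 for Hspd1.

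CCT is the cytosolic chaperonin that folds actin and tubulin. Of its 7 tested subunits none passed, and log2 fold changes ran from -0.14 to 0.18. Cct3 had 212, 224, 195 and 199.9 CPM in vehicle 1 to 4 and 225, 233, 238 and 245 CPM in PAM 1 to 4, higher in each PAM library by a small step (0.18 ± 0.10, SE). Cct5 likewise had 248, 239, 239.5 and 253 CPM with vehicle and 266, 272, 265 and 263 CPM with PAM (0.12 ± 0.09, SE). Cct2 had 134, 163, 169 and 176 CPM with vehicle and 199.8, 184, 162 and 166 CPM with PAM, and Cct6a had 178, 164, 169.7 and 167 CPM with vehicle and 144, 171, 145 and 158 CPM with PAM. Those of Cct2 and Cct6a overlapped, with log2 fold changes of 0.15 ± 0.11 and -0.14 ± 0.10 (SE). Cct7 was lower in every PAM library (-0.11), although it belongs to the same complex. Tcp1, the first subunit, which the symbol rule does not take, had 110.3 CPM with vehicle and 110.9 CPM with PAM on average. Summed CCT was 1499 ± 23.7 CPM with vehicle and 1552 ± 57.7 CPM with PAM (mean ± SD, n = 4).

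None of the other co-chaperones passed the test. Stip1 (Hop), the bridge from Hsp70 to Hsp90, had 323, 337, 324 and 354 CPM in vehicle 1 to 4 and 297, 290.2, 293 and 268 CPM in PAM 1 to 4. It was lower in every PAM library, with a log2 fold change of -0.22 ± 0.10 (SE, edgeR adjusted p = 0.119). Chordc1, an Hsp90 partner that responds to heat, had 22.0, 26.4, 33.2 and 27.5 CPM with vehicle and 25.4, 43.9, 36.4 and 41.5 CPM with PAM (0.43 ± 0.20, SE). Only PAM 1 of its group lay within the vehicle range, and without PAM 1 the gene passed (log2 fold change 0.58, edgeR adjusted p = 0.0485). Hspbp1, an exchange factor for Hsp70, had 205, 211, 209 and 197 CPM with vehicle and 199.8, 170.4, 280.1 and 322 CPM with PAM. PAM 3 and PAM 4 were far above the rest and PAM 1 and PAM 2 were not, so the log2 fold change of 0.24 ± 0.16 (SE) turned to -0.14 when PAM 3 and PAM 4 were left out. Without PAM 2 the gene passed upward, at 0.38 (edgeR adjusted p = 0.0426). Hspbap1, named for its binding to Hspb1, had 14.6, 10.7, 5.64 and 6.79 CPM with vehicle and 12.4, 10.4, 13.1 and 13.7 CPM with PAM (0.38 ± 0.31, SE).

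Chaperones of the endoplasmic reticulum are raised together by the unfolded protein response, in which Atf6 acts through the ER stress element, CCAAT and CCACG with any 9 bases between them. This 19-base pattern was in 3 chaperone windows, those of Hspa5, Hsp90b1 and Dnajc3, and in 0.0657% of all windows. Stretches of each are shown with the 2 ends of the element in capitals.
Hspa5: gttcaCCAATcggaggcctCCACGacggg
Hsp90b1: caaacCCAATcgaaaggagCCACGcttcg
Dnajc3: caaagCCAATcagcgccaaCCACGaccca
None of the 3 genes passed the test. Dnajb9, a BiP partner that is strongly induced in this response, had 35.97, 30.8, 29.7 and 32.4 CPM in vehicle 1 to 4 and 32.7, 46.9, 42.7 and 30.6 CPM in PAM 1 to 4 (0.25 ± 0.17, SE). Dnajb11, another BiP partner, had 111, 100.2, 99.2 and 114 CPM with vehicle and 97.5, 101, 90.6 and 80.0 CPM with PAM (-0.20 ± 0.12, SE). Both sets of libraries overlapped, and the signs differed. Dnajc3 was 24.5 ± 4.46 CPM with vehicle and 30.7 ± 1.93 CPM with PAM (mean ± SD, n = 4). Outside the 81 genes, Hyou1, the Hsp110 relative that serves BiP, fell by 0.67 on the log2 scale (edgeR adjusted p = 0.000370).

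Levels of different genes can be compared only per length. With vehicle, Hspa8 (1062 ± 21.5 CPM per kb of exon) and Hsp90ab1 (864 ± 19.1 CPM per kb) led, followed by Hspe1 (369 ± 7.67), Hspa5 (244 ± 13.3), Hsp90b1 (177 ± 14.5) and Stip1 (159 ± 6.78), each as mean ± SD with n = 4. The next ones were Dnaja1 (146 ± 11.04), Hspbp1 (143 ± 4.14) and Cct5 (140 ± 3.86). The first 4 stood apart by more than their SDs, and from Hsp90b1 to Cct5 each gene overlapped its neighbour within 1 SD. The exonic length of Hspe1 is 267 bases, short for a transcript, so its level per kb may be too high beside the others. The stress-induced forms had low counted levels: Hsp90aa1 had 12.2 ± 3.04 and Hspa1a/Hspa1b 3.25 ± 0.740 CPM per kb. Both may be too low, because the treatment of reads with several matches is unknown. RefSeq lists 16 pseudogenes of Hsp90aa1, and Hspa1a and Hspa1b share 1 Ensembl identifier. With PAM the first 5 places were the same genes in the same order. Hspb1 moved from place 34 to 19, Bag3 from 53 to 32, Hspb8 from 61 to 42 and Hspa12a from 50 to 67 of 81. All members together made up 11754 ± 166 CPM with vehicle and 12239 ± 568 CPM with PAM. Of this the 7 genes that rose made up 280.2 ± 15.8 CPM with vehicle and 490.3 ± 14.8 CPM with PAM, and the 3 that fell 285 ± 9.54 and 166 ± 13.4 CPM. The 10 genes together were 4.81% ± 0.253 of the chaperone total with vehicle and 5.37% ± 0.260 with PAM (SD, n = 4).

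**Figure D3:**
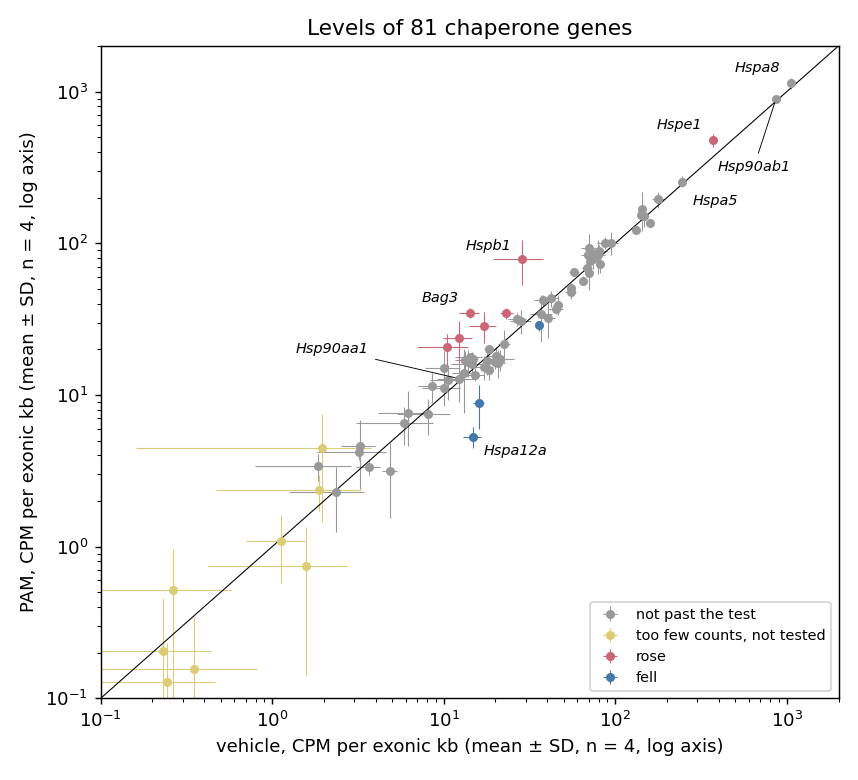
Mean level with PAM against mean level with vehicle for the 81 chaperone genes, in TMM-scaled CPM per exonic kb on log axes (points with bars of ± SD, n = 4; bars that reach below the axis are cut off). Points on the diagonal have equal means; Hspa8, Hsp90ab1 and Hspa5 lie on it, whereas Bag3 and Hspb1 lie above it and Hspa12a below it.

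Other genes of the heat shock pathway were read from lists that do not overlap with the 81. The lists share genes with each other (Fkbp4, Ahsa1, Cacybp, Ptges3, St13 and Tcp1), so they are not separate observations. Of 5 tested heat shock factors and regulators, none passed; Hsf1 had a log2 fold change of -0.04 and Hsf2 of 0.04. Of 17 textbook Hsf1 targets 2 rose and 0 fell, with a median of 0.04. Those that rose were Rgs2 (1.47), a regulator of G protein signalling, and Mt2A (0.45), a metallothionein, both of which are known to respond to other stimuli as well. The Mt2A groups overlapped, with PAM 2 at 374 CPM and the vehicle libraries at 392 to 454 CPM. Of 29 Hsp90 and Hsp70 co-chaperones 0 rose and 2 fell, Hyou1 (-0.67) and Trap1 (-0.36), the mitochondrial Hsp90. Of 18 prefoldin subunits, CCT partners, tubulin cofactors and mitochondrial proteases 2 rose and 0 fell, with a median of 0.12. These were Pdcl (0.86) and Txndc9 (0.43), both phosducin-like proteins that bind CCT. All 4 lists had medians within 0.15 of 0 and 0% to 11.8% of genes that rose, where 9.00% of all genes did.

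**Figure D4:**
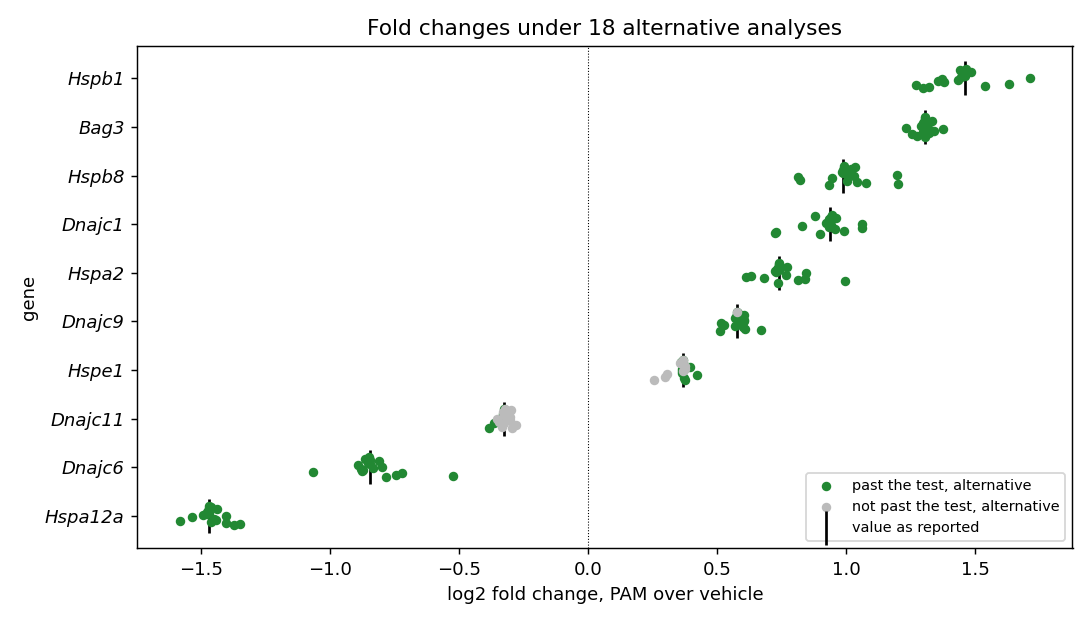
Log2 fold changes of the 10 chaperone genes past the test, as reported (black line) and under 18 alternative analyses (points, green where past the threshold and grey where not). Bag3 has the narrowest range for its size (1.23 to 1.38), and grey points appear for Hspe1, Dnajc11 and, once, Dnajc9.

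How firmly each call stood differed between genes. Across the 18 alternatives 7 of the 10 genes passed every time, namely Hspb1, Bag3, Hspb8, Dnajc1, Hspa2, Dnajc6 and Hspa12a. Dnajc9 passed in 17, Hspe1 in 10 and Dnajc11 in 5. Leaving out PAM 3 and PAM 4 gave 9 genes that rose (12.3% of 73) and 6 that fell (8.22%), where 11.2% of all genes rose and 12.5% fell in that same fit. Calls over all genes thus went up as well, from 2218 of 11740 to 2900 of 12253. Beside the genes named above, Dnajc27 passed downward without PAM 2, Dnajc7 downward without PAM 4 and Dnajc8 upward without PAM 3 and PAM 4. Several of the genes have pseudogenes in RefSeq, among them 33 for Hspa8, 23 for Hsp90ab1, 16 for Hsp90aa1, 14 for Cct6a and 9 for Dnajb6. Their counts and those of Hspd1 and Hspa1a/Hspa1b are uncertain, since no source used here says how reads with several matches were treated. Exons of Cct8, Dnajc19 and Dnajc30 overlap those of Usp16, Fxr1 and Bud23 on the other strand, which adds to the uncertainty of those 3. Overlaps with genes without a symbol were found for Hsp90b1 (266 bases) and Dnajc8 (16) on the same strand. On the other strand they were found for Bag6 (212) and Hspa1l (357). Such partners had 0 counts, apart from 6 for that of Hspa1l, and the effect on the members' counts was not tested.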

How the data were processed

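The 8 libraries of polyadenylated RNA (4 vehicle, 4 PAM) were grouped by the titles in the labels. The authors deposited raw counts per gene and library as written by featureCounts, with Ensembl rat identifiers, exon positions and exonic lengths, per the file headers. Per the submitters' processing notes, STAR, featureCounts, DESeq and DESeq2 were used with Rnor_6.0. Per the file headers, the authors also deposited their own comparison, with normalised group means (signal values), a log2 fold change, a p-value and its adjusted form for each gene. This table gave the gene symbols. Strandedness and the treatment of reads with several matches are unknown from these sources. Without strand, overlapping and antisense genes cannot be told apart, and near-identical copies are uncertain.

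The analysis used R 4.3.3 and edgeR 4.0.16. The low-count filter filterByExpr kept 11740 genes. After TMM scaling, PAM was compared with vehicle by the quasi-likelihood F test (robust, no covariates), and a gene was called at a Benjamini-Hochberg adjusted p under 0.05. The SE is the log2 fold change over the square root of F. For a gene with 0 counts the upper limit was 0.683 to 1.01 CPM, depending on the library (3 counts, counting error only). All 8 libraries were used. Pairs of replicates differed beyond sampling noise, which alone gives a chi-square over degrees of freedom of about 1. Vehicle pairs had 2.77 to 4.11. In the PAM group the value was 4.36 for PAM 1 and 2, 6.22 for PAM 3 and 4, and 7.42 to 14.8 for the other pairs. The fit nevertheless used 1 estimate of spread per gene for both groups. The members and gene lists were chosen with earlier results of these data known. Named were all members past the test, up to 4 per class with the smallest p, and a set of well-known members whatever their p; others are given by range and count. Alternatives were DESeq2 1.42.0, limma-voom 3.58.1, RLE and upper-quartile scaling, no filter, a minimum mean of 1 CPM, a 1.2-fold test, a block for the replicate number, omission of each library in turn, PAM 3 and PAM 4 left out, and a loess correction (span 0.5) for exonic length in each library. The procedure was tested on simulated data. Promoter windows are the 250 bases before RefSeq starts on GRCr8, a different build from that of the counts, and were used for their letters only.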

Additional observations from a re-analysis of the deposited data

Results flagged for a closer look

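In groups of 4 libraries, 1 library stood far from the other 3 in 2 of 94 groups examined (47 named genes in 2 groups), where chance alone flags about 1 group in 20. Dnajb5 was low in vehicle 1, at 184 CPM, with a gap of 0.867 of the group's range to the nearest library. Dnajc9 was low in vehicle 3, at 33.2 CPM, with a gap of 0.883 of the range. Dnajc9 passed the test with vehicle 3 left out, and Dnajb5 did not pass in the fits that left out 1 library each.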

How the results depend on the processing

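Over the 18 alternatives 5 to 9 chaperone genes rose and 2 to 6 fell (7 and 3 as reported). Without PAM 3 and PAM 4, 6 fell, and class medians of the log2 fold change were -0.037 for Bag, 0.19 for J-protein A and 0.072 for other co-chaperones (0.15, 0.0073 and 0.31 as reported). With length trends removed the J-protein C median was -0.089 (-0.021 as reported). Leaving out 1 library at a time gave -0.10 to 0.079 for the J-protein B median and -0.10 to 0.018 for J-protein C. The cause was not tested. Signs turned only for genes that never passed in that setting. Without PAM 3 and PAM 4 log2 fold changes were -0.0047 for Hspa1a/Hspa1b, 0.22 for Hspa9, 0.22 for Dnaja4, 0.026 for Dnajb2 and -0.14 for Hspbp1. Dnajb2 was 0.00033 by limma-voom and 0.026 with upper-quartile scaling, and Dnaja1 was -0.010 with length trends removed. With 1 library left out Bag2 ranged from -0.22 to 0.019, Hspa9 from -0.36 to 0.0041, Hspa4 from -0.047 to 0.11, Hsp90aa1 from -0.044 to 0.25, Dnaja1 from -0.048 to 0.13, Dnaja4 from -0.16 to 0.082 and Dnajb2 from -0.043 to 0.039.

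With the replicate block 7 genes rose and 2 fell, Dnajc11 being lost. Libraries of the same number did not deviate together (correlations of 0.052, -0.045, 0.068 and -0.060 for numbers 1 to 4). Such correlations cannot exclude a shared culture or batch, so whether the labels' numbers pair the samples is unknown. Upper-quartile scaling moved the median of all genes from 0.021 to 0.050, and 52.8% of its calls were higher with PAM, against 47.7% as reported. Standard errors on the log2 scale had a median of 0.20 over all genes tested, and were 0.36 for Hspa1a/Hspa1b and 0.42 for Dnajb13. In counts simulated for PAM against vehicle over 11560 genes, the test recovered 25.4% of 1.5-fold, 63.1% of 2-fold and 96.7% of 4-fold changes. The simulation changed far fewer genes than passed in the data (124 calls, against 2218), which makes the adjustment stricter. These shares are thus not those of the data. A gene with a wide SE that did not pass, such as Hspa1a/Hspa1b, may still have changed by 1.5-fold or 2-fold. Narrower SEs, such as 0.09 for Hspa8, leave less room for such a change.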
